A study of Mus musculus with 12 samples.

Results

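Gene expression was compared between wild-type tumour macrophages of 2 mouse tumours, PyMT breast tumours and MCA fibrosarcomas, across autosomal genes. PyMT names the polyoma middle T oncogene, which drives mammary carcinoma, and MCA names methylcholanthrene, a carcinogen that induces fibrosarcoma. The comparison used the arrays labelled wild type, 4 of the 12 Illumina BeadChip arrays of a study of S1PR1, a sphingosine-1-phosphate receptor that was knocked out in some of the mice. The WT PyMT group had 2 arrays, replicates 1 and 2, of wild-type cells from PyMT tumours of female C57BL/6 mice. The WT MCA group had 2 arrays, replicates 1 and 2, of wild-type cells from MCA tumours of male C57BL/6 mice. Age and time of sampling are not stated in the labels. All cells had been sorted by flow cytometry for high CD11b, the integrin chain of myeloid cells, and pooled, and their RNA was amplified before hybridisation. The labels name 2 amplification systems, SuperAmp and Ovation Pico, without saying which arrays each served, so whether amplification goes with tumour is unknown. The 4 arrays of knockout cells (KO PyMT and KO MCA, 2 each) entered the model for its estimate of spread and shared in normalization, filter and probe choice. They also give a further pair of groups that differ by tumour. Tumour goes with sex and with BeadChip, since all PyMT group arrays share 1 BeadChip and all MCA group arrays the other, so these cannot be told apart from tumour in the wild-type arrays alone. One sample, KO MCA replicate 1, was hybridised to both BeadChips, and its repeat array sits beside the PyMT arrays.

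Tumour-associated macrophages derive largely from blood monocytes and from resident macrophages of the tissue, and take up programmes that depend on their surroundings. They clear debris, remodel matrix through proteases, recruit other leukocytes through chemokines and show peptides to T cells on MHC class II molecules. In several mouse tumours, cells with high and low MHC class II have been told apart, and the high ones resemble dendritic cells in several genes.

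All 14 measured macrophage core markers, among them Itgam (CD11b), Csf1r, Adgre1 and Cd68, were above background on all 4 wild-type arrays. Adgre1 measured 8.42 and 8.36 on the log2 intensity scale on WT PyMT arrays and 8.38 and 8.42 on WT MCA arrays, and Csf1r measured 7.50 and 7.89 on WT PyMT arrays and 7.56 and 7.97 on WT MCA arrays. Above background means a deposited detection p under 0.05. Of 12410 autosomal genes tested, 9378 and 9810 were above background on WT PyMT arrays and 10164 and 10427 on WT MCA arrays. S1pr1 was above background on 0 of the 4 arrays. The labelled sex was borne out by Xist, at 8.93 and 9.19 on WT PyMT arrays against 4.26 and 4.11 on WT MCA arrays. Replicate spread was as wide as the distance between tumours. The log2 differences between the WT PyMT replicates had an SD of 0.588, those between the WT MCA replicates 0.486, and those between a WT PyMT and a WT MCA array 0.515 to 0.639. WT MCA replicate 2 stood apart from replicate 1 in genes of fibroblasts and sarcoma cells, described with that list. Since nothing in the labels ties the replicates of a group to different mice or pools, a p-value here weighs a difference against array-to-array spread that may be purely technical.

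A single autosomal gene passed the genome-wide test, the non-classical MHC class I gene H2-M2, which rose in WT PyMT macrophages. It measured 9.74 and 9.76 on WT PyMT arrays, against 4.12 and 5.04 on WT MCA arrays. Both PyMT arrays lay far above both MCA arrays, and on MCA replicate 1 the gene was not above background. The log2 difference, WT PyMT minus WT MCA, was 5.17 ± 0.32 (SE), or 36.0-fold (limma, Benjamini-Hochberg adjusted p = 0.00884). Its size depends on how background is handled, with 3.31 without background correction or with the authors' values and 3.79 with normexp. The call was lost, with the difference at 5.16 to 5.18, with only wild-type arrays in the fit or normalized alone (limma adjusted p = 0.168 and 0.167), with no detection filter (0.0727), without either WT PyMT array (0.208 and 0.124) and without either KO MCA array (0.0905). With a BeadChip term taken from the repeat array, the difference was 5.07 and the limma adjusted p was 1. That is 1 of 12410 autosomal genes (0.00806%), with 0 called lower by limma. At an unadjusted p under 0.05 there were 992 (7.99%), 495 higher (3.99%) and 497 lower (4%) on WT PyMT arrays. Counted without a p-value, 378 autosomal genes were at least 2-fold apart with arrays that did not overlap (3.05%), 171 higher (1.38%) and 207 lower (1.67%). H2-M2 belongs to both counts. The other genes of either count did not pass the genome-wide test, so the autosomal genes described from here on are given as measured values and not as calls. Having 2 arrays a group limits how precisely each is known.

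H2-M2 was also high on the other PyMT arrays. The knockout arrays enter no group mean of this comparison, though they shared in its normalization, filter and probe choice. They gave 10.57 and 10.16 in KO PyMT against 4.74 and 4.56 in KO MCA (difference 5.72 ± 0.32, limma adjusted p = 0.00453). H2-M2 was 1 of 8 autosomal genes called there (0.0645%). The KO MCA sample on both BeadChips gave 4.84 on the PyMT BeadChip and 4.74 on the MCA BeadChip, a difference of 0.10. Both values lie near the low end of the scale. They cannot show how a bright H2-M2 signal would differ between the BeadChips, which was not tested. The adjacent genes on chromosome 17 were then looked at, a choice made after the values had been seen. In the RefSeq table of GRCm38.p6, the protein-coding genes next to H2-M2 on either side are olfactory receptor genes, which encode odorant receptors of the nose. The next on one side, Olfr110, measured 5.88 and 4.89 on WT PyMT arrays and 4.37 and 4.07 on WT MCA arrays (1.17 ± 0.35, limma adjusted p = 0.537). The one after it, Olfr111, measured 7.49 and 8.44 on WT PyMT arrays and 4.56 and 5.09 on WT MCA arrays (3.14 ± 0.39, limma adjusted p = 0.162). For both genes the PyMT arrays lay above the MCA arrays, in knockout as in wild type. Olfr108 and Olfr109 on the other side and Olfr112, beyond Olfr111, stayed between 4.06 and 4.49 on all 8 group arrays. Cross-hybridisation between the probes of these related receptors was not tested.

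**Figure D1:**
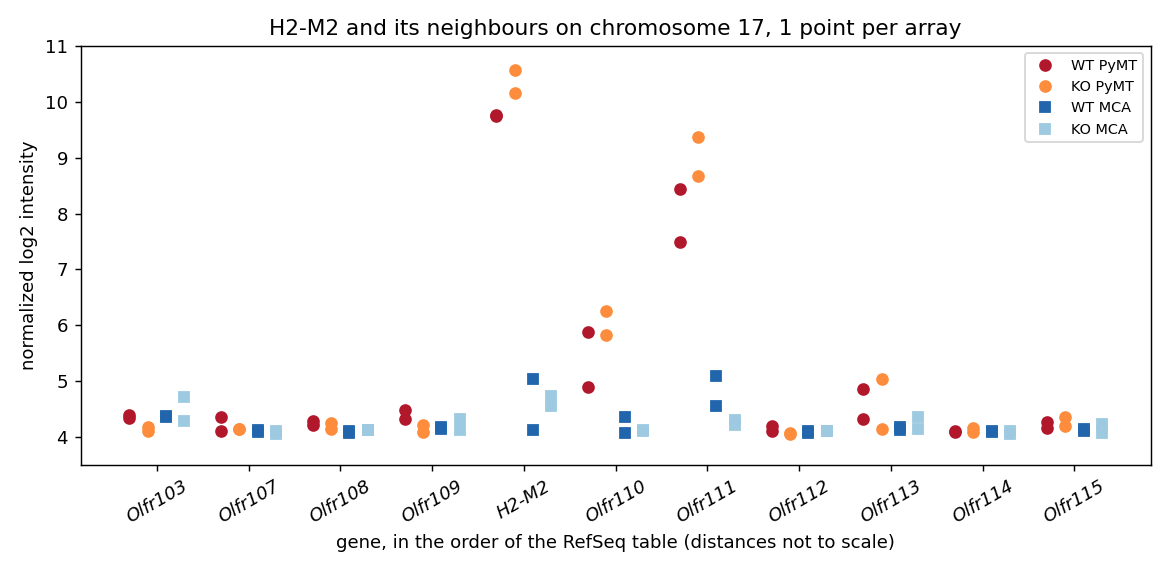
Normalized log2 intensity (y axis) of H2-M2 and the olfactory receptor genes next to it on chromosome 17, in gene order (x axis), 1 point per array for WT PyMT, KO PyMT, WT MCA and KO MCA. H2-M2, Olfr110 and Olfr111 have all 4 PyMT arrays above all 4 MCA arrays, while the other genes measure 4.06 to 5.04, and levels of different probes are not to be compared with each other.

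The 250 bases before the transcription start are shown for H2-M2 and Olfr111, the genes of this stretch with the largest differences, and for H2-Aa and H2-Eb1, chains of the classical MHC class II molecules described further on. Capitals mark the letters CCAAT or its reverse complement ATTGG, searched on both strands. Class II promoters are known for a Y box with these letters, bound by NF-Y, beside the X box. The sequences are RefSeq's for GRCm38.p6, read 5′ to 3′ on the gene's strand, at chr17:37483555-37483804 (minus strand), chr17:37529707-37529956 (plus strand), chr17:34287824-34288073 (minus strand) and chr17:34305617-34305866 (plus strand).
H2-M2: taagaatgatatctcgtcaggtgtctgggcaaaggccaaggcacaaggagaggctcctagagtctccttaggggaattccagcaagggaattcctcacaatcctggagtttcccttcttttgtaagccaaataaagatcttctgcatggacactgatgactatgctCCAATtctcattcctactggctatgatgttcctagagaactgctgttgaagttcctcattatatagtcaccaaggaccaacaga
Olfr111: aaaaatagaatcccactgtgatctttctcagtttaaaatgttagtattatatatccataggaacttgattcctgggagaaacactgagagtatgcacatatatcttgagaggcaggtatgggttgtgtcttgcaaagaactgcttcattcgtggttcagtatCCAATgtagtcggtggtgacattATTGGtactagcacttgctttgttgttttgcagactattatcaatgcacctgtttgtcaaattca
H2-Aa: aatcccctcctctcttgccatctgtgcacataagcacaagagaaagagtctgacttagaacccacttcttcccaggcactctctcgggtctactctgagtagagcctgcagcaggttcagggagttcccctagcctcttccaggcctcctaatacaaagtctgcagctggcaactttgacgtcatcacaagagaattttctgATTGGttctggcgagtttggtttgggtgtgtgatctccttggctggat
H2-Eb1: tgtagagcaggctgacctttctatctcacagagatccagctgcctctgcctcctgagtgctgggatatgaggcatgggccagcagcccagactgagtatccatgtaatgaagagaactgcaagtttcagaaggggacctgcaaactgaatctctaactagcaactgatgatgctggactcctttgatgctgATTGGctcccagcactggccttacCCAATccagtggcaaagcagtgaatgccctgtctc
Each of the 4 holds the motif, which 33.8% of 32851 promoters of the same length hold. A match of 5 letters is a description and does not show that a factor binds there.

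By the naming rule, the 12 autosomal genes with the smallest p in each direction were described next. The rule took only genes whose wild-type groups did not overlap, so that separation is not a result for any of them. The genes higher on WT PyMT arrays included Mmp12, the macrophage metalloelastase, which cleaves elastin. Mmp12 measured 8.87 and 8.23 on WT PyMT arrays and 6.22 and 6.48 on WT MCA arrays. Both PyMT arrays were higher, by 2.20 ± 0.27 or 4.61-fold (limma adjusted p = 0.162), and in knockout arrays by 2.71, although the mixed MCA control replicate 1, outside the groups, measured 8.51. Dnase1l3, a secreted DNase of macrophages and dendritic cells, measured 8.16 and 8.29 on WT PyMT arrays and 6.48 and 6.43 on WT MCA arrays (1.77 ± 0.24, limma adjusted p = 0.201). Its groups were far apart and each pair of replicates close together, but the mixed PyMT control measured 5.12, below the MCA arrays. Sema4b, a membrane semaphorin, measured 9.88 and 9.78 on WT PyMT arrays and 8.32 and 7.66 on WT MCA arrays (1.84 ± 0.25), and its other probe gave 1.26. Stbd1, which tethers glycogen to membranes, measured 6.43 and 6.76 on WT PyMT arrays and 4.80 and 4.73 on WT MCA arrays (1.83 ± 0.23). Neither of these genes had overlapping groups, as the rule required.

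Milk and mammary genes were among them. Csn3, the gene of the milk protein kappa-casein, measured 5.84 and 5.87 on WT PyMT arrays and was below background on both WT MCA arrays, at 4.22 and 4.09, which makes it at least 3.12-fold higher (limma adjusted p = 0.249). Its other probe gave a log2 difference of 0.35. Wfdc18, of the whey acidic protein family, measured 6.07 and 6.77 on WT PyMT arrays and was below background on WT MCA arrays, at 4.08 and 4.12, at least 4.63-fold higher (limma adjusted p = 0.162). Such a bound sets the mean of the bright group against the lowest signal above background on each array of the other group, or the gene's own signal where that was higher. Both genes had the PyMT arrays apart from the MCA arrays, as the naming rule required.

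For 3 of the higher genes a further probe gave a difference near 0. Stim1, the calcium sensor of the endoplasmic reticulum, measured 9.56 and 9.16 on WT PyMT arrays and 5.62 and 6.25 on WT MCA arrays (3.42 ± 0.45), but its other probe gave 0.27. Daam2, a formin-related protein of Wnt signalling, measured 8.72 and 8.27 on WT PyMT arrays and 4.21 and 5.25 on WT MCA arrays (3.76 ± 0.43), and its other probe gave -0.26. Snn, which encodes stannin, had 2.19 on the brightest probe, where knockout arrays gave -0.42, and -0.19 on the other. The differences of these genes rest on 1 probe each.

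H2-Ea, the alpha chain of the class II molecule I-E, was singled out because laboratory C57BL/6 mice carry a loss-of-function allele of it. It measured 5.97 and 6.10 on WT PyMT arrays and 4.11 and 4.36 on WT MCA arrays (1.80 ± 0.18, 3.48-fold, limma adjusted p = 0.103). The WT PyMT arrays were also above the KO PyMT arrays, at 4.22 and 4.13, and the mixed PyMT control, at 4.18. Of all 12 arrays, those of WT PyMT alone exceeded 5. The tumour difference in wild type exceeded that in knockout by 1.72 ± 0.26, which did not pass the genome-wide test (limma adjusted p = 0.532). Nnt, a mitochondrial transhydrogenase that C57BL/6J mice lack in working form, measured 6.51 and 6.63 on WT PyMT arrays and 5.76 and 6.06 on WT MCA arrays, and was above background on all 4. The labels name no substrain.

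Among the genes lower on WT PyMT arrays, 2 act on cyclic AMP signalling. Crem, a transcription factor that responds to cyclic AMP, measured 6.21 and 6.30 on WT PyMT arrays and 8.03 and 8.30 on WT MCA arrays. Both PyMT arrays were lower, by -1.91 ± 0.28 on the log2 scale (limma adjusted p = 0.249), and its other probes gave -1.77 and -1.13. Pde4d, a phosphodiesterase that degrades cyclic AMP, measured 4.24 and 4.38 on WT PyMT arrays and 6.37 and 7.38 on WT MCA arrays (-2.56 ± 0.46, limma adjusted p = 0.37), while its other probe gave -0.25 and the mixed PyMT control, outside the groups, measured 7.17. Adk, the kinase that removes adenosine, measured 4.42 and 4.36 on WT PyMT arrays and 5.90 and 6.13 on WT MCA arrays (-1.62 ± 0.29). Ormdl3, which restrains sphingolipid synthesis, measured 4.90 and 5.08 on WT PyMT arrays and 6.55 and 6.68 on WT MCA arrays (-1.62 ± 0.27), but differed by 0.05 between the tumours in knockout arrays. The replicates of these genes lay close together except those of Pde4d on MCA arrays.

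The other lower genes were 4933412E12Rik, Olfr222, Zdhhc12 (a palmitoyltransferase), Copz2 (a coatomer subunit), H2bc4 (a histone H2B), Smim15, Josd1 (a deubiquitinase) and Wdr45b (of autophagy). Over all 12, the fold was between 2.02 and 5.90 and the limma adjusted p between 0.249 and 0.384. Of these, 4933412E12Rik, Olfr222 and Zdhhc12 were below background on both WT PyMT arrays, so that the bound is at least 3.18-fold, 2.20-fold and 4.05-fold lower. Wdr45b differed by -1.11 ± 0.21 on its brightest probe, while its 3 other probes gave 0.29 to 0.90. Josd1 differed by -1.01 ± 0.19 in wild type and 0.90 in knockout arrays. The probes of Wdr45b thus disagree in direction.

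**Figure D2:**
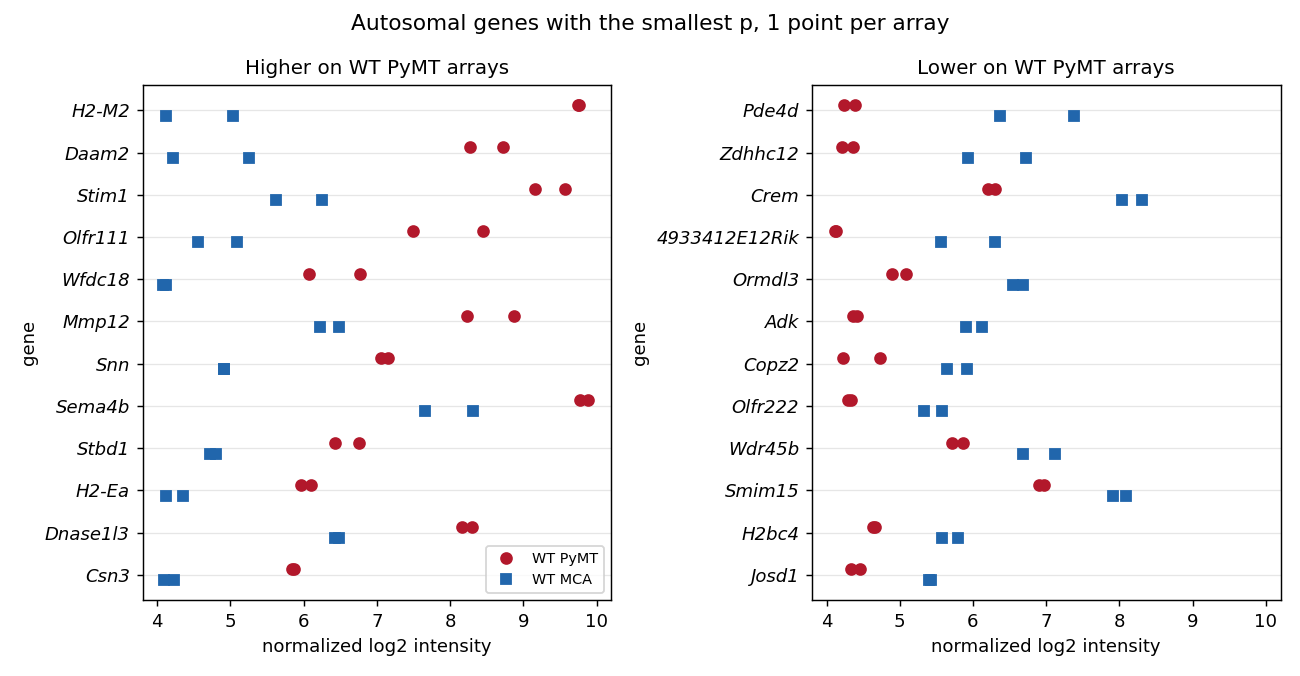
Normalized log2 intensity (x axis) of the 24 autosomal genes with the smallest p, 12 higher (left panel) and 12 lower (right panel) on WT PyMT arrays, with 1 point per array (WT PyMT circles above WT MCA squares). The groups do not overlap for any of them, as the rule required, and H2-M2 has the widest gap.

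In the knockout arrays, 11 of the 12 higher and 9 of the 12 lower genes differed between tumours in the same direction. The exception among the higher genes was Snn, at -0.42. H2-Ea counts among the 11 with a difference of 0.08, though it was above background on 0 knockout arrays, so its sign there carries no information. Of the 992 genes with an unadjusted p under 0.05, 748 (75.4%) had the same direction in knockout arrays, against 61.3% of all 12410 genes. On all 12 arrays, mixed controls and repeat included, 8 of the 12 higher and 4 of the 12 lower genes had PyMT and MCA arrays that did not overlap. The naming rule had already required this of the wild-type arrays among them. The same count over all autosomal genes was not made, so these numbers cannot be judged against it. The knockout arrays sit on the same BeadChips and come from mice of the same sexes, so that these numbers do not separate tumour from either. The difference between the tumours itself was not shown to depend on genotype, with 0 genes called by limma and 710 (5.72%) at an unadjusted p under 0.05.

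The repeated sample gave a measure of the BeadChip. Its 2 arrays differed with an SD of 0.281 over autosomal genes, and 32 genes were at least 2-fold apart. Of the 992 genes, 117 (11.8%) had a BeadChip difference of the same sign and at least 0.5 times the tumour difference, as had 11 of the 378 genes at least 2-fold apart (2.91%) and 4110 of all 12410 (33.1%). Genes chosen for a large tumour difference have a lower share by that choice. Read on a single BeadChip, both WT PyMT arrays lay beyond the repeated KO MCA array in the direction of the tumour difference for 916 of the 992 genes (92.3%), against 6652 of all 12410 (53.6%), and the 992 were chosen for a difference that rests on the same WT PyMT arrays. That reading differs in genotype and sex as well as in tumour, and it shares the WT PyMT arrays with the comparison.

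**Figure D3:**
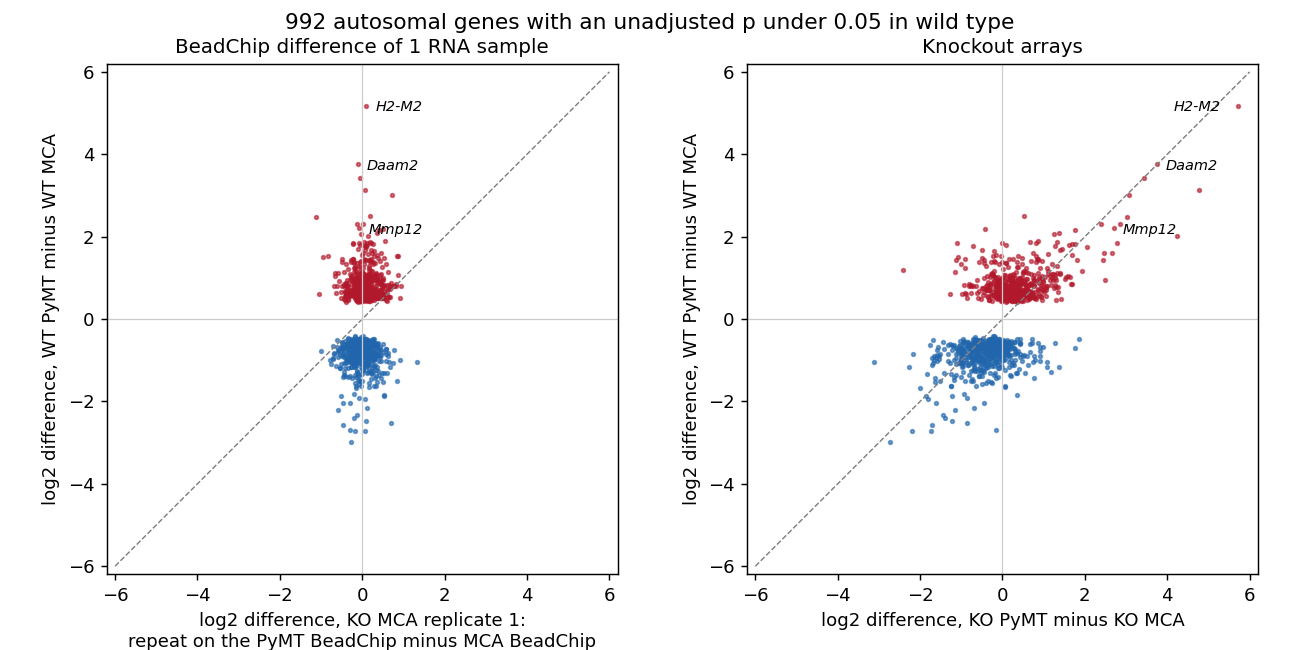
Log2 difference between WT PyMT and WT MCA arrays (y axis) of the 992 autosomal genes with an unadjusted p under 0.05, against the BeadChip difference of the repeated KO MCA sample (left panel, x axis, log2) and against the difference between KO PyMT and KO MCA arrays (right panel, x axis, log2). Each point is a gene, red where higher and blue where lower on WT PyMT arrays, and the dashed line marks equal values. BeadChip differences gather around 0, while H2-M2, Daam2 and Mmp12 lie near the dashed line in the knockout panel. The higher genes had a median of 0.78 in wild type and 0.29 in knockout, and the lower genes -0.81 and -0.41. All were chosen by their wild-type difference.

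MHC class II genes were the list with the highest median. Its 12 members, chains of the molecules and the proteins that load or control them, had a median log2 difference of 0.62, against -0.01 over all autosomal genes, and 11 of 12 were higher. By limma, 7 had an unadjusted p under 0.05, all higher, where 3.99% of autosomal genes did, and none passed adjustment over all genes. H2-Eb1, the beta chain of I-E, measured 10.79 and 10.78 on WT PyMT arrays and 9.72 and 10.09 on WT MCA arrays (0.88 ± 0.20, 1.84-fold, limma adjusted p = 0.472). H2-Ab1, the beta chain of I-A, measured 11.60 and 11.72 on WT PyMT arrays and 10.97 and 11.21 on WT MCA arrays (0.57 ± 0.18, limma adjusted p = 0.56), and its other probes gave 0.62 and 0.77. For both genes both PyMT arrays lay above both MCA arrays. Genes picked from a list by p tend to have groups that do not overlap, here and in the lists below. The share of all autosomal genes without overlap, whatever their fold, was not counted. H2-DMb1 and H2-DMb2, chains of the molecule that exchanges peptides on class II, differed by 0.70 ± 0.24 and 0.66 ± 0.18. The remaining 3, named after their values were seen, were H2-Aa (0.58), the alpha chain of I-A, and H2-Oa (1.47) and H2-Ob (1.38), chains of the molecule that restrains peptide exchange. Cd74, the invariant chain, measured 12.36 and 12.43 on WT PyMT arrays and 11.86 and 12.13 on WT MCA arrays (0.40 ± 0.19). In knockout arrays the median of the list was 0.00. With 1 array left out the list median was 0.48 to 0.69, and the count of 7 became 2 without WT MCA replicate 1 and 3 without replicate 2 or without WT PyMT replicate 2. With each array scaled to its median in place of quantile normalization, the median over all autosomal genes was -0.15, that of the list 0.37, and 2 members had an unadjusted p under 0.05. With the BeadChip term taken from the repeat array, the list median was 0.75 and 0 members had an unadjusted limma p under 0.05. Over all autosomal genes, the 992 became 174 with that term.

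Dendritic cell markers lay in the same direction. Of 17 measured, 5 had an unadjusted p under 0.05, all higher, where 3.99% of autosomal genes did. The median was 0.43 (knockout -0.07). Siglech, a lectin of plasmacytoid dendritic cells, measured 7.04 and 7.83 on WT PyMT arrays and 5.34 and 5.35 on WT MCA arrays (2.08 ± 0.37, limma adjusted p = 0.37), with 1.63 on its other probe. Itgax (CD11c) measured 7.89 and 7.88 on WT PyMT arrays and 7.36 and 6.34 on WT MCA arrays (1.04 ± 0.33), and Batf3, a transcription factor of cross-presenting dendritic cells, differed by 0.97 ± 0.29. The PyMT arrays were higher for each of these 3 genes. Dpp4 (CD26) measured 6.60 and 5.92 on WT PyMT arrays and 4.67 and 5.01 on WT MCA arrays (1.42 ± 0.33), and its difference in knockout arrays was -1.13. The markers above background numbered 14 and 12 on WT PyMT arrays and 9 and 11 on WT MCA arrays, and their summed signal was 1170 and 1220 against 788 and 813. Of the genes that define conventional dendritic cells, Clec9a was above background on all 4 arrays, at 5.87 and 4.39 on WT PyMT arrays and 4.45 and 4.39 on WT MCA arrays. Flt3 and Xcr1 were each above background on 1 WT PyMT array and on neither WT MCA array, at 4.93 and 4.22 on WT PyMT arrays and 4.29 and 4.17 on WT MCA arrays for Flt3. The high Clec9a value was that of WT PyMT replicate 1 alone. The list median was 0.25 without WT PyMT replicate 1 and 0.70 without replicate 2, and without WT MCA replicate 2 the count was 3. With the BeadChip term the list median was 0.53, with 2 members higher at an unadjusted limma p under 0.05. In these pools, more cells of a type and more RNA per cell cannot be told apart, and the part of dendritic cells in the MHC class II values was not tested.

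Cell cycle genes had the lowest median of the lists. Of 34 measured, 9 had an unadjusted p under 0.05, all lower, where 4% of autosomal genes did, and the median was -0.50 (knockout -0.40), with 30 of 34 lower. Cdk1, the kinase that drives entry into mitosis, was below background on both WT PyMT arrays, at 4.23 and 4.27, and measured 5.45 and 5.11 on WT MCA arrays, at least 2.01-fold lower (limma adjusted p = 0.48). Its other probes gave -0.04 and 0.30. Kif11, a motor of the mitotic spindle, was below background on WT PyMT arrays, at 4.16 and 4.26, and measured 6.43 and 5.72 on WT MCA arrays, at least 3.49-fold lower. Birc5 (survivin), of the chromosomal passenger complex, measured 5.03 and 4.93 on WT PyMT arrays and 6.81 and 5.89 on WT MCA arrays (-1.37 ± 0.39), and its other probes gave -1.61 and -1.24. Cenpa, the centromeric histone, measured 6.99 and 7.12 on WT PyMT arrays and 7.88 and 7.78 on WT MCA arrays (-0.78 ± 0.22). The PyMT arrays were lower in all 4 genes. Without WT MCA replicate 1 the list median was -0.30, with 1 member lower and 2 higher at an unadjusted p under 0.05, and without WT PyMT replicate 2 it was -0.46, with 5 lower and 2 higher. Scaled to the array median it was -0.80, with 13 lower. With the BeadChip term the list median was -0.62, with 2 lower.

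Genes of oxidative phosphorylation also lay slightly lower. Of 48 measured, 5 had an unadjusted p under 0.05, all lower, where 4% of autosomal genes did. The median was -0.24 (knockout -0.51). Atp5o, of ATP synthase, differed by -0.74 ± 0.21, with both PyMT arrays below both MCA arrays. Ndufb3, of complex I, measured 5.82 and 6.76 on WT PyMT arrays and 7.55 and 6.99 on WT MCA arrays (-0.98 ± 0.36). Without WT MCA replicate 1 no member had a lower value at an unadjusted limma p under 0.05, without WT PyMT replicate 1 there were 3, without either KO MCA array 2, and without WT PyMT replicate 2 there were 7. With median scaling there were 12 and the median was -0.54, and with only wild-type arrays in the fit or normalized alone there was 1. With the BeadChip term there were 0 and the median was -0.23. Of 33 interferon-stimulated genes, 1 had an unadjusted p under 0.05, the exonuclease gene Isg20, at 5.37 and 5.18 on WT PyMT arrays and 6.27 and 6.16 on WT MCA arrays. Its arrays did not overlap between tumours, but the median of that list turned with the MCA array kept, -0.23 with both, 0.17 without WT MCA replicate 1 and -0.73 without replicate 2. None of 52 ribosomal protein genes and none of 16 genes of MHC class I and peptide loading had an unadjusted limma p under 0.05, with medians of -0.10 and -0.08. For the ribosomal list this depends on the processing, with 2 higher and 6 lower without background correction, 2 and 5 with the authors' values, 1 and 5 with normexp, 2 and 6 with no detection filter and 0 and 6 by limma with median scaling. For MHC class I it depends on the MCA array, the median being 0.10 without replicate 1 and -0.23, with 3 lower, without replicate 2.

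Genes of alternative activation, the programme that interleukin-4 evokes, did not lie to 1 side. Of 20 measured, 3 were higher and 2 lower at an unadjusted p under 0.05, where 3.99% and 4% of autosomal genes were. The median was 0.24 (knockout 0.10). Retnla, a secreted protein of this programme, measured 5.71 and 6.57 on WT PyMT arrays and was below background on WT MCA arrays, at 4.10 and 4.16, at least 3.82-fold higher (limma adjusted p = 0.37). The knockout difference was 4.23 (limma adjusted p = 0.0216). The lectin genes Mgl2 and Clec10a differed by 1.38 ± 0.40 and 0.98 ± 0.36, and in knockout arrays by -0.001 and 0.57. Mrc1, the mannose receptor, measured 7.76 and 8.91 on WT PyMT arrays and 9.06 and 9.72 on WT MCA arrays (-1.05 ± 0.41, knockout -0.19). Markers of the same programme thus lay on both sides. The counts were 1 higher and 3 lower without WT MCA replicate 1, and 6 higher and 0 lower by limma without replicate 2. Of 20 genes of classical activation, Il1a and Tnf were higher and Fpr2 lower at an unadjusted p under 0.05. Il1a, the gene of interleukin-1 alpha, measured 10.47 and 10.35 on WT PyMT arrays and 9.23 and 9.54 on WT MCA arrays (1.02 ± 0.20, limma adjusted p = 0.384). Tnf, of tumour necrosis factor, differed by 0.77 ± 0.26. Fpr2, a receptor for formyl peptides, measured 5.58 and 5.47 on WT PyMT arrays and 7.94 and 8.54 on WT MCA arrays (-2.71 ± 0.77), the groups lying wide apart.

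Chemokine ligands were split as well. Of 21 measured, Ccl3 was higher and Pf4, Ccl7 and Cxcl1 were lower at an unadjusted p under 0.05. Over all autosomal genes, 3.99% were higher and 4% lower at that threshold. Ccl3, which attracts monocytes and T cells, measured 9.84 and 10.15 on WT PyMT arrays and 9.02 and 8.82 on WT MCA arrays (1.08 ± 0.19, 2.11-fold, limma adjusted p = 0.37). Pf4 (CXCL4) measured 5.26 and 6.53 on WT PyMT arrays and 7.73 and 8.11 on WT MCA arrays (-2.03 ± 0.41, limma adjusted p = 0.398). Ccl7, a ligand of the monocyte receptor CCR2, measured 8.36 and 8.53 on WT PyMT arrays and 9.22 and 9.41 on WT MCA arrays (-0.87 ± 0.24). None of these 3 genes had overlapping groups, but they were picked by p, which favours groups that do not overlap. Cxcr6, a receptor for CXCL16, measured 5.60 and 5.17 on WT PyMT arrays and 4.59 and 4.57 on WT MCA arrays (0.80 ± 0.20).

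Matrix, lipid and scavenging genes gave single large differences and no common direction. Plau, the urokinase plasminogen activator, measured 11.21 and 11.06 on WT PyMT arrays and 10.71 and 10.12 on WT MCA arrays (0.71 ± 0.24). Of 19 matrix proteases and inhibitors, 3 were higher and 1, Adam8, lower at an unadjusted p under 0.05, and the median was -0.01. Such genes made up 3.99% (higher) and 4% (lower) of all autosomal genes. Lpl, the lipase that frees fatty acids from lipoproteins, measured 8.91 and 8.65 on WT PyMT arrays and 5.62 and 6.94 on WT MCA arrays (2.50 ± 0.42, 5.66-fold, limma adjusted p = 0.365). Its KO MCA values, 8.35 and 8.42, lay near the PyMT ones, and its knockout difference was 0.52. Of 24 genes of lipid and cholesterol metabolism 3 were higher at an unadjusted p under 0.05, the others being Srebf1 (0.84 ± 0.23), a regulator of fatty acid synthesis, and Mylip (0.56 ± 0.18), which degrades the LDL receptor. Gpnmb, a glycoprotein of lipid-laden macrophages, measured 8.59 and 8.55 on WT PyMT arrays and 4.88 and 7.29 on WT MCA arrays (2.49 ± 0.77), its other probes gave -0.05 to 1.30 and its BeadChip difference was -1.12. Siglec1 (CD169) measured 5.42 and 6.77 on WT PyMT arrays and 8.94 and 7.14 on WT MCA arrays (-1.95 ± 0.66). The WT MCA replicates of Lpl, Gpnmb and Siglec1 differed widely, as did the WT PyMT replicates of Siglec1. The errors given draw on the spread of all 8 group arrays, knockout included. Thbs1, the angiogenesis inhibitor thrombospondin, measured 9.01 and 8.31 on WT PyMT arrays and 9.35 and 10.64 on WT MCA arrays (-1.34 ± 0.45), and Tgfb3, a transforming growth factor, differed by -1.22 ± 0.33. Pdgfb went the other way, by 1.27 ± 0.49. Of 25 growth and angiogenic factors, 1 was thus higher and 2 lower at an unadjusted p under 0.05. The median of these factors was -0.22 (knockout -0.05), with 19 of the 25 lower.

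Stress, lysosome and metal genes held a few at an unadjusted p under 0.05, which 7.99% of all autosomal genes had (3.99% higher, 4% lower). The values below describe single genes and not the lists as a whole. Egr3, an immediate early transcription factor, measured 7.69 and 7.14 on WT PyMT arrays and 4.74 and 5.76 on WT MCA arrays (2.16 ± 0.46, limma adjusted p = 0.413), the groups lying apart, but its other probe gave 0.21. In its list of 29 immediate early and heat shock genes 2 were higher and 1 lower at an unadjusted p under 0.05. Slc40a1 (ferroportin), the iron exporter, measured 5.97 and 7.32 on WT PyMT arrays and 4.16 and 5.44 on WT MCA arrays (1.85 ± 0.56), the 1 such gene of 25 in iron handling and oxidative stress. Man2b1 and Ctsd, a mannosidase and a protease of the lysosome, differed by 0.50 ± 0.17 and 0.50 ± 0.21, the 2 such genes of 25 in their list. Of 29 genes of hypoxia and glycolysis, 1, the MAX partner Mxi1, was lower, at 4.87 and 4.74 on WT PyMT arrays and 5.54 and 6.08 on WT MCA arrays.

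Markers of other cells were read in the same arrays. Fibroblast and sarcoma markers lay lower on WT PyMT arrays, with 11 and 10 of 23 above background there and 17 and 22 on WT MCA arrays. Their summed signal was 742 and 704 on WT PyMT arrays and 681 and 3152 on WT MCA arrays, so that WT MCA replicate 2 stood apart. Col1a1, of type I collagen, was below background on WT PyMT arrays, at 4.18 and 4.14, and measured 4.84 and 8.91 on WT MCA arrays. Col5a1, of type V collagen, was below background on WT PyMT arrays, at 4.11 and 4.09, and measured 5.41 and 7.46 on WT MCA arrays. The median of the list was -0.44, with 3 members lower at an unadjusted p under 0.05, where 4% of autosomal genes were. In knockout arrays the median was 0.03, with 12 of the 23 higher. In wild type it was -0.08 without WT MCA replicate 2 and -1.17 without WT MCA replicate 1. With the BeadChip term it was -0.54, with 0 members at an unadjusted limma p under 0.05. The part of such cells in other differences was not tested.

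Epithelial and mammary markers had a median of 0.22. At an unadjusted p under 0.05, 3 of 13 were higher, where 3.99% of autosomal genes were. Of the 13, 9 and 11 were above background on WT PyMT arrays and 7 and 6 on WT MCA arrays, with a summed signal of 988 and 1022 against 731 and 736. Besides Csn3, Cdh1 (E-cadherin) measured 8.23 and 7.40 on WT PyMT arrays and 6.24 and 6.26 on WT MCA arrays (1.57 ± 0.55), and Krt18 (keratin 18) measured 5.11 and 4.62 on WT PyMT arrays and 4.13 and 4.28 on WT MCA arrays (0.66 ± 0.23). The PyMT arrays were higher for both. Without either WT MCA array, 1 of the 13 had an unadjusted p under 0.05. T and NK cell markers had 4 of 15 members higher at an unadjusted p under 0.05, against 3.99% of autosomal genes. Il7r, the interleukin-7 receptor, measured 6.82 and 6.98 on WT PyMT arrays and 5.56 and 5.38 on WT MCA arrays (1.42 ± 0.31), and Prf1, of perforin, differed by 0.92 ± 0.21. Of the T cell receptor complex, Cd3d was above background on both WT PyMT arrays, at 4.95 and 4.49, and on neither WT MCA array, at 4.19 and 4.17 (at least 1.42-fold higher), and Cd3e was below background on all 4 arrays. The summed signal of this list was 624 and 664 on WT PyMT arrays and 472 and 502 on WT MCA arrays, and the count of 4 was 2 without any 1 of the MCA group arrays. Their part in the tumour difference was not tested. Of 12 neutrophil markers 6 were higher and 6 lower, with a median of 0.08. The granule genes Lcn2 and Ltf differed by 1.25 ± 0.26 and 0.66 ± 0.27, and the gelatinase gene Mmp9 measured 4.89 and 4.56 on WT PyMT arrays and 5.09 and 7.97 on WT MCA arrays (-1.81 ± 0.84, knockout -3.67). None of 14 monocyte markers, 10 endothelial markers or 9 B and plasma cell markers had an unadjusted limma p under 0.05. The monocyte median of -0.26 was -0.60 with 4 markers lower without WT MCA replicate 1, and 0.19 with 1 higher without replicate 2. Of the macrophage core markers themselves, Itgam, at 7.59 and 7.51 on WT PyMT arrays and 8.16 and 8.23 on WT MCA arrays (-0.65 ± 0.24), and Cd14, a co-receptor for lipopolysaccharide (-0.49 ± 0.18), had an unadjusted p under 0.05, and 13 of 14 were lower.

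**Figure D4:**
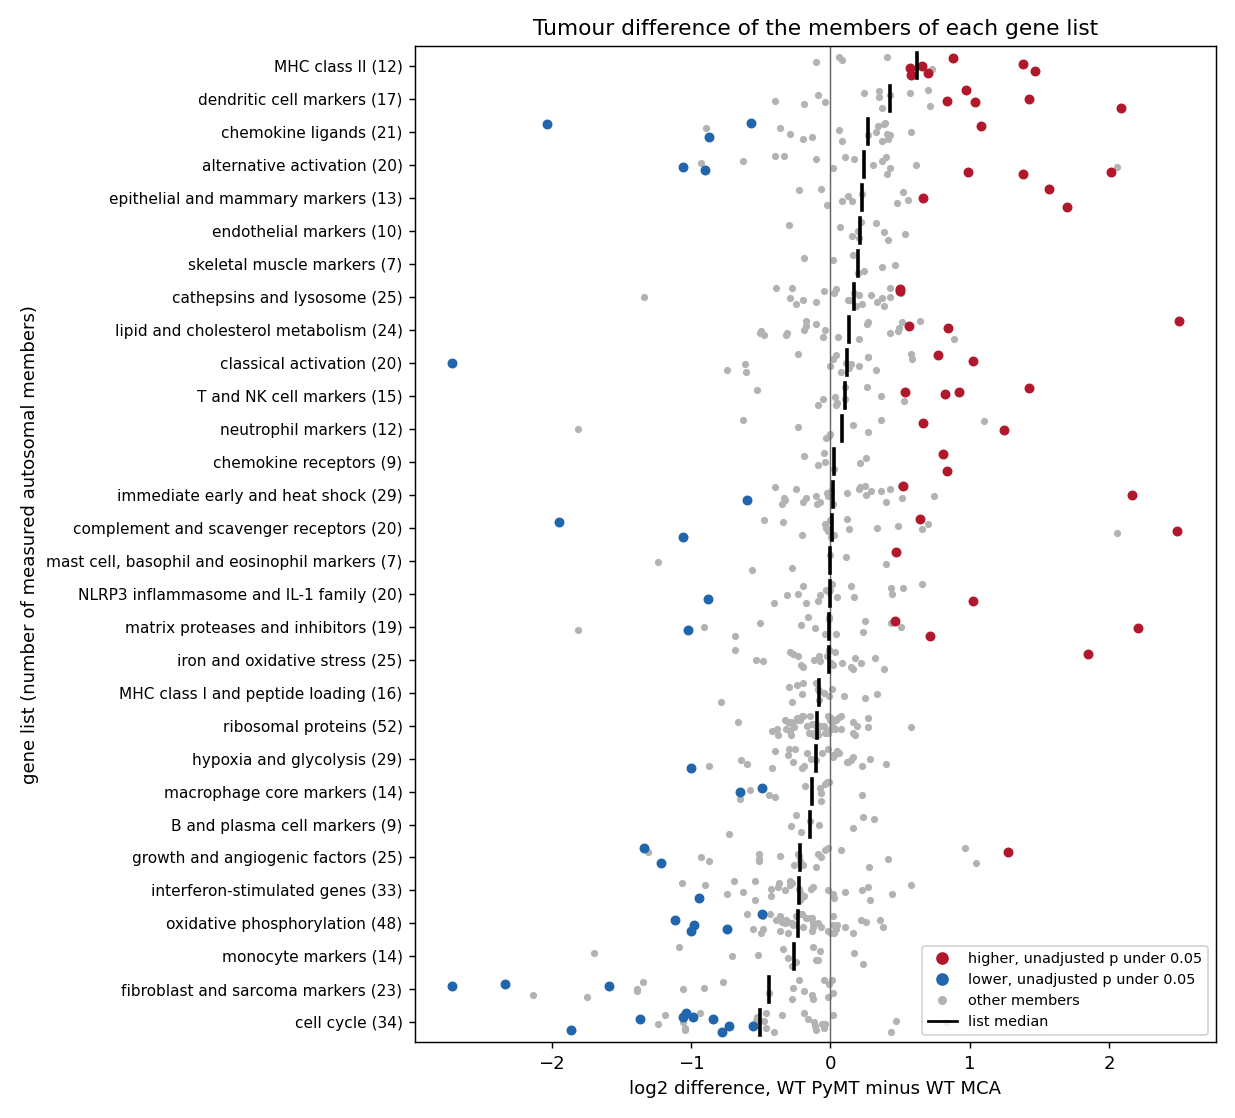
Log2 difference between WT PyMT and WT MCA arrays (x axis) of each measured member of the gene lists with at least 7 members (rows, number of members in brackets), ordered by list median (black bar), with members at an unadjusted p under 0.05 in red (higher) or blue (lower) and the others in grey. MHC class II stands at the top with a median of 0.62 and the cell cycle list at the bottom with -0.50.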

How the data were processed

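The 12 single-colour arrays measured amplified RNA of pooled sorted macrophages. Each deposited intensity is a probe's average signal over its beads, linear and unprocessed, per the file headers. The deposited detection p-value per probe compares that signal with background, per the file headers. The authors' normalized intensity values, made by a method that no label or header names, served as an alternative. All log2 values were computed here from the deposited intensity with neqc (limma 3.58.1, R 4.3.3, offset 16) on all 12 arrays. The filter kept 26748 of 46237 probes, those detected at p under 0.05 on 2 or more arrays of the 8 in the groups, and the brightest of a gene was used. That gave 14103 genes, 12410 of them on an autosome in the RefSeq table. A probe's gene came from the platform table, which listed 35784 probes with 1 symbol and 10453 with none.

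A limma model with 4 groups (8 arrays) gave the contrast WT PyMT minus WT MCA, with two-sided p-values adjusted over all 14103 genes by Benjamini-Hochberg and a call at an adjusted p under 0.05. Tests were tried on simulated data first. Genes were named by rule: the 12 with the smallest p in each direction that were above background on both arrays of the higher group and did not overlap, up to 4 per list by p, the core markers, H2-Ea and Nnt. The genes and the 31 lists were chosen with earlier results of these data known. Same-numbered replicates did not deviate together (correlation of deviations -0.04), so no pairing was used. Median raw signal per array was 86.8 to 92.5 on the 4 wild-type arrays. X-linked genes, Y-linked genes and 1266 genes with no chromosome in the table were left out of the description, since tumour goes with sex. Alternatives covered background correction, normalization, filter, probe choice, arrays in the fit, array weights, a replicate block, a BeadChip term and leaving out each array.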

Additional observations from a re-analysis of the deposited data

How the results depend on the processing

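The single call, H2-M2, had a log2 difference of 3.31 to 5.63 under every alternative that measured it. It was the 1 call with normexp at an offset of 50, without background correction, with the authors' values, median scaling, the mean of probes, array weights and the replicate block (adjusted p = 0.0357 with the block, limma, and 952 genes at an unadjusted p under 0.05). There were 0 calls with the wild-type arrays normalized alone, with only wild-type arrays in the fit, with no detection filter and with the BeadChip term, where limma adjusted p for H2-M2 was 0.167, 0.168, 0.0727 and 1. There were also 0 calls with detection required on all 4 wild-type arrays, a filter that removes H2-M2. Counting genes with no chromosome gave 2. Leaving out 1 array gave 0 to 14 calls, 14 without WT MCA replicate 1, among them Col1a1, Col3a1 and Col6a1, where replicate 2 stands alone and is assumed to vary like the others. There were 0 calls without either WT PyMT or either KO MCA array. The 992 genes at an unadjusted p under 0.05 became 1526 with no filter, 582 with detection on all 4 arrays, 174 with the BeadChip term and 622 to 1360 with 1 array left out. The difference of the tumour effect between genotypes gave 0 to 1 calls with 1 array left out, 1 of them without KO PyMT replicate 2. The SD of the BeadChip difference was 0.155 with normexp, 0.123 without background correction and 0.124 with the authors' values, alternatives added after the data had been seen. Daam2 turned to -0.26 with detection on all 4 wild-type arrays, and Wdr45b to 0.13 with the mean of probes, both through other probes of the gene. Of the list medians, 538 of 620 under the alternatives moved by less than the spread between replicates. Probes near background bound how far low genes can be read.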
